A study of Mus musculus with 8 samples.

Results

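The genes of antigen presentation by the major histocompatibility complex (MHC) were examined in single-cell RNA-seq of mouse embryonic stem (mES) cells, untreated or exposed to CX-5461, which inhibits RNA polymerase I, the enzyme that makes ribosomal RNA. The group held 10 of the 54146 genes in the count tables: the class I heavy chains H2-K1 and H2-D1, the class I light chain B2m, the peptide loading genes Tap1, Tap2 and Tapbp, the class II chains H2-Aa, H2-Ab1 and H2-Eb1, and the class II invariant chain Cd74. They were chosen by symbol, with the ratios of CX-5461 over control from an earlier look at these data in view, so their changes are given as a description. Both groups were wild-type E14 cells, a line derived from the inner cell mass, grown on gelatin with mouse embryonic fibroblast (MEF) feeders in medium with LIF and 2 inhibitors (2i) for 2 days. The dose and time of CX-5461 for the single-cell libraries are not given in the sources used here. The labels list 4 samples per condition, but all barcodes of a condition stand in 1 table with serial names that do not tell the samples apart. A condition thus amounted to 1 library, there was no replicate check and no test, and barcodes shared between samples could not be counted.

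Class I molecules carry peptides from the cytosol to the surface of nearly every nucleated cell. The heavy chain pairs with beta-2 microglobulin, and the TAP transporter and tapasin bring peptides to it in the endoplasmic reticulum. Class II molecules are paired alpha and beta chains that carry peptides from endosomes and belong mainly to macrophages, dendritic cells and B cells, where the invariant chain fills their groove until a peptide replaces it. The transactivator CIITA drives class II genes, and its relative NLRC5 drives class I genes. Pluripotent cells are known for very low class I levels, and fibroblasts for class I levels that interferon raises.

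All members but B2m and Cd74 lie in the MHC on chromosome 17 of GRCm38. H2-Eb1 (ENSMUSG00000060586.10) spans 34305867 to 34316674, next to H2-Ab1 (ENSMUSG00000073421.5, 34257689 to 34269419) and H2-Aa (ENSMUSG00000036594.14, 34282744 to 34287823). Tap1 (ENSMUSG00000037321.17, 34187553 to 34197225) lies beside Tap2 (ENSMUSG00000024339.12, 34203527 to 34216321). H2-K1 (ENSMUSG00000061232.15, 33996017 to 34000347) and Tapbp (ENSMUSG00000024308.14, 33915899 to 33929292) stand at one end of the complex and H2-D1 (ENSMUSG00000073411.11, 35262730 to 35267499) at the other. B2m (ENSMUSG00000060802.8) lies on chromosome 2, from 122147686 to 122153083. Each of these genes is annotated as protein coding.

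The promoters of H2-K1, B2m, H2-Aa and H2-Eb1 are shown, to set the class II gene with the largest difference beside its neighbour H2-Aa and beside a heavy and the light chain of class I; their windows hold no exon of a protein-coding transcript. The sequences are those of RefSeq on GRCm38.p6, read along the gene's strand from 250 to 2 bases before the transcription start, and capitals mark matches to the motifs searched.
H2-K1, chr17:34000349-34000597, minus strand: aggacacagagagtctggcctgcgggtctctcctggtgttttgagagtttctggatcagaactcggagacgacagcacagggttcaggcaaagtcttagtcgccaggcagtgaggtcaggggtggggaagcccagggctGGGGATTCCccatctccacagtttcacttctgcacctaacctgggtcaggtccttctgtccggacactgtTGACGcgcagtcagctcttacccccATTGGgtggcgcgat
B2m, chr2:122147437-122147685, plus strand: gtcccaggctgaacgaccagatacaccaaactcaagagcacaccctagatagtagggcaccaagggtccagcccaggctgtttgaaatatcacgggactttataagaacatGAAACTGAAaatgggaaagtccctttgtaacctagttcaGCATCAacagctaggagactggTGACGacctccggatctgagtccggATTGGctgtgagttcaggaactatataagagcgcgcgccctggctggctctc
H2-Aa, chr17:34287825-34288073, minus strand: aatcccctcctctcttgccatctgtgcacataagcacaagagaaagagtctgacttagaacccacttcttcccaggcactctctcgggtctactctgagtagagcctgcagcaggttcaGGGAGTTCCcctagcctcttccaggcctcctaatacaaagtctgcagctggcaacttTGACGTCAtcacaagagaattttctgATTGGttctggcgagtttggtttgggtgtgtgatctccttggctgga
H2-Eb1, chr17:34305617-34305865, plus strand: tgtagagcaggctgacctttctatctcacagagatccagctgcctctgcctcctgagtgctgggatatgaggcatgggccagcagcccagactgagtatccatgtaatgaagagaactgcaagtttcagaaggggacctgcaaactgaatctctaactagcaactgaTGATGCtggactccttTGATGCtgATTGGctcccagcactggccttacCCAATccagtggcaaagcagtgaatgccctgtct

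The table of promoters held 7 of the 10 members, and Tap2, H2-Ab1 and Cd74 were not in it. The motifs were searched on both strands of 249 bases: the CCAAT box (CCAAT), the half-site of a cyclic AMP response element (TGACG), the hexamer TGATGC, picked after these windows were seen, an NF-kB-like site (GGGNNTTCC), an interferon-response-like site (GAAANNGAA) and a STAT-like site (TTCNNNGAA). A CCAAT box stood in 7 of 7 members, against 33.8% of all 32851 promoters. TGACG stood in 5 of 7, all but Tapbp and H2-Eb1, against 17.7% of all promoters. TGATGC stood in B2m and H2-Eb1, against 9.15%, GGGNNTTCC in H2-K1, H2-D1 and H2-Aa, against 4.94%, and GAAANNGAA in B2m, against 7.08%. TTCNNNGAA was found in none of the 7 and in 7% of all promoters. Only these exact letters were searched, so a member without a match can still hold a variant of the site. No match overlapped one of another motif, and in H2-Aa a forward and a reverse TGACG overlapped each other. In the printed windows the inverted CCAAT box began 16 bases before the start in H2-K1, 53 in B2m, 48 in H2-Aa and 59 in H2-Eb1, and H2-Eb1 held a forward one at 35 bases. These matches are letters in a window and not measured sites. The windows of H2-D1, Tap1 and Tapbp lie over annotated exons and are not printed. Those exons belong to H2-D1 itself, to Tap1 and the divergent gene Psmb9, and to Tapbp, Zbtb22 and the antisense gene Gm19412. The counts over 7 members thus include windows that are not only upstream sequence.

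After filtering, 3767 control and 4697 CX-5461 cells were kept, with medians of 12987 and 14213 UMIs (unique molecular identifiers, which count captured RNA molecules). Cells were clustered without the members and without the other genes of their pathways. The ES-like clusters held 2365 control and 4442 CX-5461 cells with 41342432 and 63670739 UMIs, and 1 cluster called fibroblast-like from collagen and other fibroblast markers held 211 and 162 cells with 4490482 and 3924460 UMIs. Except for 1 cell, control and CX-5461 ES-like cells lay in different clusters, 0, 3 and 4 in the control and 7, 8 and 9 under CX-5461. The 10 leading genes of cluster 8 included 1 keratinocyte marker, Krt15, so levels are also given by cluster number. None of the ES-like clusters had an ES marker among its 10 leading genes. The median share of mitochondrial UMIs was 1.9% in each of control clusters 0, 3 and 4 and 4.0%, 4.1% and 15.7% in clusters 7, 8 and 9. Its part in the results was not tested. A shallow control cluster of 1169 cells, with a median of 2388 UMIs and a median mitochondrial share of 11.9%, stayed unnamed. The cluster's ES markers stood at 1.09 times their level over all cells, and it was left unnamed by the rule on depth. Cluster 9, with a median of 5930 UMIs, was kept as ES-like. Cells with 10 or more UMIs of Lyz2, which marks macrophages, were left out; there were 5, all in the control library and in the fibroblast-like cluster. In summed counts, fewer cells with a transcript and less RNA per cell cannot be told apart, so shares of cells are given as well.

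In ES-like cells the class II gene H2-Eb1 and the transporter gene Tap1 differed most between the libraries. Of the 10 members, 7 had 200 or more UMIs over both libraries, the minimum for ranking, and of these 6 were at least 1.5-fold higher under CX-5461 and 1, Tapbp, was lower. Of all 11680 genes with that many UMIs, 37.2% were at least 1.5-fold higher and 7.32% lower. H2-K1, Tap1, H2-Eb1 and Cd74 had fewer than 200 UMIs in control ES-like cells and reached the minimum only with the CX-5461 cells. For this reason, and since the members were chosen on this contrast, nothing is read from their count or median. The median log2 ratio was 2.39 over the 7 members and 0.37 over all ranked genes, so a gene at the median was already higher on this scale; scaling by TMM factors shifts every log2 ratio in ES-like cells by -0.40 and in fibroblast-like cells by -0.16, and turned no member's direction. The class I sum of both heavy chains and B2m was 29.4 CPM (UMIs per 1000000 UMIs of the class) in control and 115.7 CPM in CX-5461 ES-like cells, a ratio of 3.93 (3.70 to 4.18). Other class I genes are not in this sum and are given below. The class II sum of the 3 chains and Cd74 was 3.58 and 121.3 CPM, a ratio of 33.9 (28.8 to 40.1), and without H2-Eb1 the ratio was 7.58 (5.25 to 11.3). All intervals are exact at 95% and cover counting error only.

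**Figure D1:**
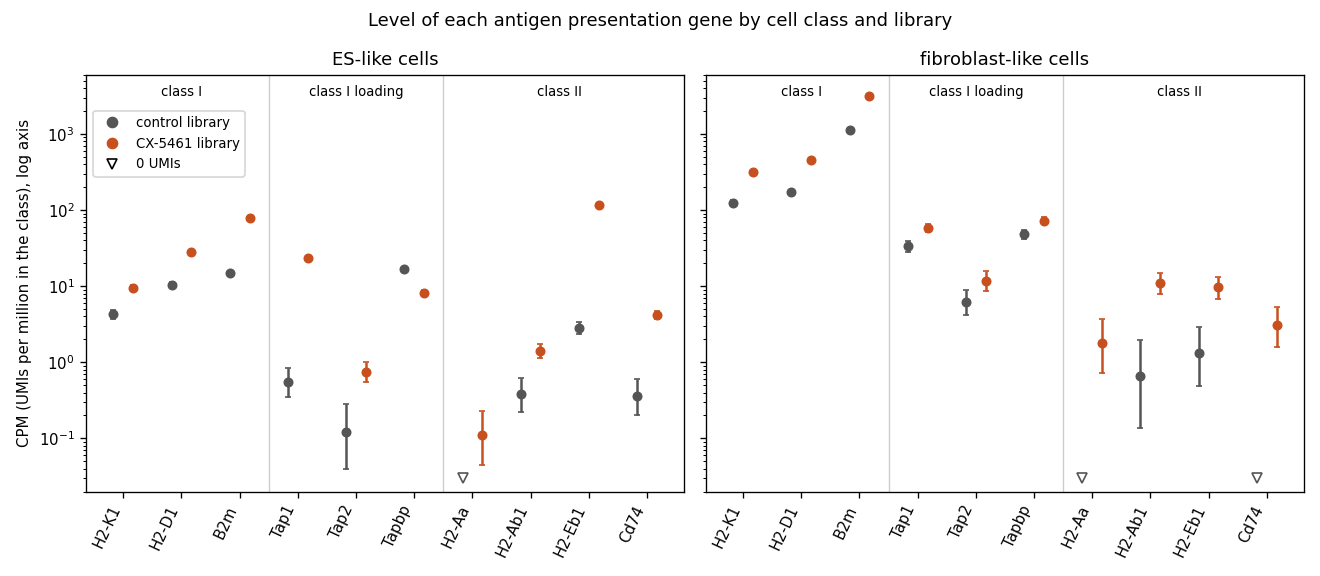
Level of each gene in CPM (log axis) in ES-like cells (left) and fibroblast-like cells (right), control library in grey and CX-5461 library in orange, with exact Poisson 95% intervals; open triangles mark 0 UMIs and have no position on the axis. Class I levels stood higher in fibroblast-like cells, and H2-Eb1 stood at 2.83 and 115.6 CPM in ES-like cells of the control and CX-5461 libraries, against 1.34 and 9.68 CPM in fibroblast-like cells.

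H2-K1, a classical class I heavy chain, had 176 UMIs in control and 606 in CX-5461 ES-like cells, or 4.26 CPM (3.65 to 4.93) and 9.52 CPM (8.77 to 10.3). H2-D1, the other classical heavy chain, had 428 and 1810 UMIs, or 10.4 and 28.4 CPM. The ratios were 2.24 (1.89 to 2.66) for H2-K1 and 2.75 (2.47 to 3.06) for H2-D1. The heavy chains resemble each other and their Q and T region relatives; the column of shared counts that the authors deposited held 0 for both, but reads that could come from a near copy remain a source of uncertainty. By cluster, H2-D1 ran from 8.80 to 11.3 CPM in the control clusters and from 18.7 to 50.3 CPM in the CX-5461 clusters, without overlap.

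B2m, the light chain that class I heavy chains pair with, had 612 UMIs in control and 4952 in CX-5461 ES-like cells, 14.8 CPM (13.7 to 16.02) against 77.8 CPM (75.6 to 80.0), a ratio of 5.25 (4.83 to 5.72). At least 1 B2m UMI was present in 20.7% (19.1 to 22.4) of the control and 57.5% (56.0 to 58.9) of the CX-5461 cells. With each cell thinned to 3000 UMIs the shares were 4.34% and 19.1%, so the difference in share was present at equal depth. The 3 control clusters lay between 14.5 and 15.3 CPM and clusters 7, 8 and 9 at 74.5, 73.8 and 139.6 CPM, the highest in the cluster with the largest mitochondrial share. Fibroblast-like cells carried far more B2m, and fibroblast markers in ES-like cells stood at 0.497% of their fibroblast-like level in the control library. RNA carried over at that share would amount to 5.66 of the 14.8 CPM of B2m in control ES-like cells, and at 0.402% to 12.9 of the 77.8 CPM under CX-5461.

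Tap1, a subunit of the transporter that moves peptides into the endoplasmic reticulum, showed with H2-Eb1 the highest ratios of the members that can be given one in ES-like cells, and the counting intervals of both overlapped. The control library held 23 UMIs and the CX-5461 library 1512, 0.556 CPM (0.353 to 0.835) against 23.7 CPM (22.6 to 24.98), a ratio of 42.7 (28.3 to 67.5), the 97th highest of the 11680 ranked genes. Its share of cells was 0.93% in the control and 25.8% under CX-5461. Thinned to 3000 UMIs per cell, where few control UMIs were left, its log2 ratio was 6.12 in place of 5.42. The control clusters held 0.422 to 1.03 CPM of Tap1, cluster 7 held 14.98 CPM, and clusters 8 and 9 held 54.5 and 52.7 CPM. The gene for the immunoproteasome subunit Psmb9 lies head to head with Tap1 and overlaps it on the opposite strand; Psmb9 had 39 and 715 UMIs, a log2 ratio of 3.57.

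Tap2, its partner subunit, was scarce, with 5 UMIs in control and 48 in CX-5461 ES-like cells, a ratio of 6.23 (2.49 to 20.1). Tapbp encodes tapasin, which holds the empty heavy chain at the transporter, and was the member with the lower level under CX-5461. Tapbp had 690 UMIs in the control and 515 under CX-5461, 16.7 CPM (15.5 to 18.0) against 8.09 CPM (7.40 to 8.82), a ratio of 0.485 (0.432 to 0.544). Tapbp ranked 375th from the lowest of 11680 genes, and its share of cells was 23.4% in the control and 10.5% under CX-5461. Clusters 7 and 8 held 8.38 and 4.12 CPM of Tapbp and the control clusters 16.4 to 19.7 CPM, while cluster 9, at 16.7 CPM, overlapped the control clusters.

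H2-Eb1, a class II beta chain, carried nearly all class II counts in ES-like cells. Its UMIs numbered 117 in the control and 7362 under CX-5461, 2.83 CPM (2.34 to 3.39) against 115.6 CPM (113.0 to 118.3), a ratio of 40.9 (34.0 to 49.5), the 100th highest of the 11680 ranked genes. The share of cells with an H2-Eb1 UMI was 4.48% (3.68 to 5.395) in the control and 60.6% (59.1 to 62.0) under CX-5461. At 3000 UMIs per cell the shares were 1.15% and 26.6%. In fibroblast-like cells of the CX-5461 library, a cell type that lacks class II at rest, the share was 13.0% at a median depth of 23608.5 UMIs, against 14117.5 UMIs in the ES-like cells. The CX-5461 counts of H2-Eb1 were spread over many cells: the 10 highest cells held 184 of the 7362 UMIs, or 2.5%, and 420 cells, 9.46%, had 5 or more UMIs, with 28 in the highest cell. In control cells no cell had more than 3.

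**Figure D2:**
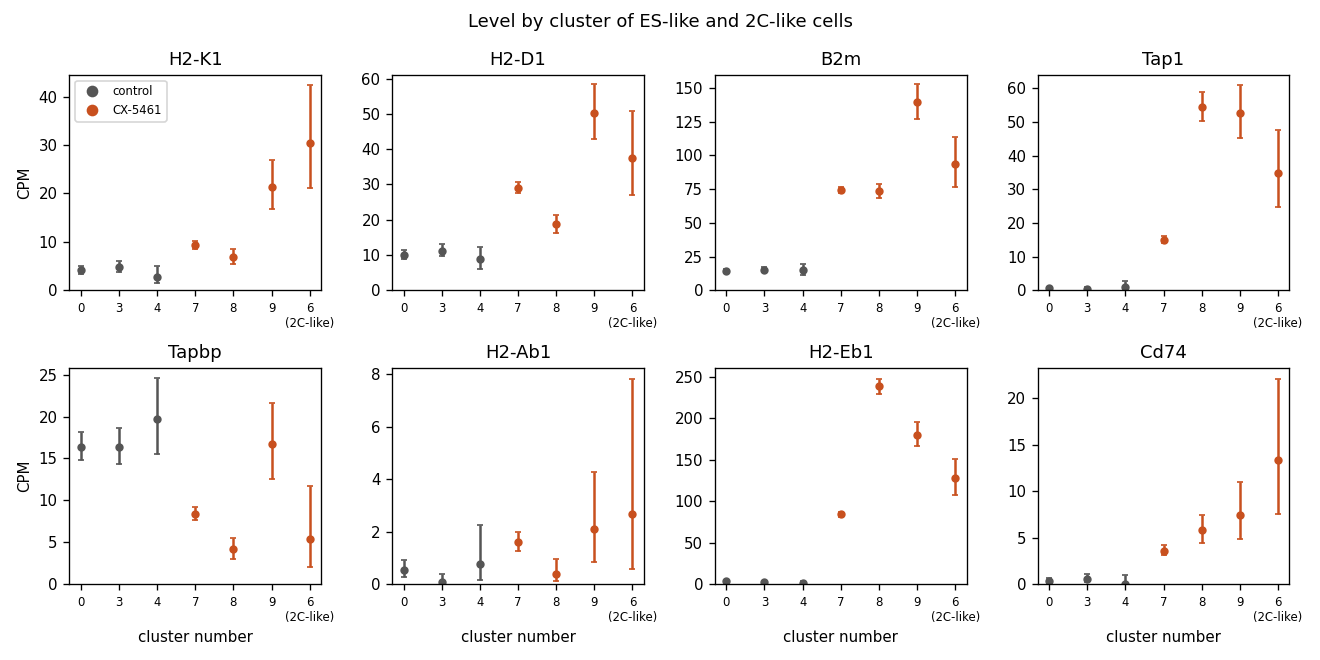
Level in CPM of 8 members (linear axes from 0) in the 3 control clusters (grey) and the 3 CX-5461 clusters (orange) of ES-like cells, by cluster number, and in the 2C-like cluster of the CX-5461 library, with exact Poisson 95% intervals. H2-Eb1 stood between 84.0 and 238.7 CPM in clusters 7, 8 and 9 and between 1.29 and 3.10 CPM in the control clusters. Tapbp in cluster 9 and H2-Ab1 in cluster 8 overlapped the control clusters.

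The clusters under CX-5461 differed among themselves in H2-Eb1. Cluster 7, with 3096 cells, held 84.0 CPM (81.5 to 86.6), cluster 8, with 837 cells, 238.7 CPM (229.7 to 248.1) and cluster 9, with 509 cells, 180.3 CPM (166.3 to 195.3). Clusters 8 and 9 were thus both above cluster 7 in H2-Eb1 and in Tap1, whereas for B2m cluster 8 was level with cluster 7 within the counting intervals. Without cluster 8 the log2 ratio of the class II sum was 4.74 in place of 5.08.

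Cd74 encodes the invariant chain, which escorts new class II dimers to endosomes. It had 15 UMIs in control and 265 in CX-5461 ES-like cells, 0.363 and 4.16 CPM, a ratio of 11.5 (6.83 to 20.8). Cd74 was found in 0.634% and 4.89% of cells. After thinning its log2 ratio was 5.02 in place of 3.52, with a UMI left in only 1 control cell. H2-Ab1, the beta chain of the A molecule, had 16 and 90 UMIs, a ratio of 3.65 (2.13 to 6.66). By cluster H2-Ab1 ran from 0.070 to 0.776 CPM in the control and from 0.367 to 2.08 CPM under CX-5461, with overlap. H2-Aa, its alpha chain partner, had 0 UMIs in the control and 7 in 7 CX-5461 cells, which is 1.52-fold higher with 3 counts set as the floor of a library. The exact lower limit of its ratio was 0.936, so a difference in H2-Aa was not detectable at this depth. A count of 0 among 2365 cells allows a share of cells with an H2-Aa UMI of up to 0.156%, the exact upper limit. Without H2-Eb1 the class II sum was 31 UMIs in the control and 362 under CX-5461. The counts of the class II group in ES-like cells were therefore mainly those of 1 beta chain, and the alpha chain H2-Aa was close to the limit of detection in both libraries.

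The window of 100000 bases on either side of H2-Eb1 held 13 other annotated genes. Only 3 of them, Tap2, H2-Ab1 and BC051142, reached 50 UMIs in ES-like cells. BC051142, named here after its values were seen, had 1 and 100 UMIs. H2-Eb2 and the pseudogene H2-Ea-ps were at 0 in both libraries, and the antisense gene Gm20513, whose exon overlaps the printed H2-Eb1 window, had 0 and 6 UMIs.

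Among the 4425 CX-5461 ES-like cells with 3000 or more UMIs, thinned to that depth, H2-Eb1 and Tap1 shared 139 cells, 1.52 times the number given by the product of their shares. H2-D1 and H2-K1 shared 19 cells, 2.04 times that number, and B2m and H2-D1 95 cells, 1.42 times. H2-Eb1 and Cd74, whose products work in 1 complex, shared 13 cells against 15.7 by the product of shares. These are co-occurrences in sparse counts across cells of 1 library and clusters of unequal level, and are given as descriptions.

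In fibroblast-like cells the question was whether the feeder fraction showed the same class I and class II differences. All members of class I and of the loading group were higher in the CX-5461 library, and 6 of the 10 members reached the 50 UMIs set as the minimum there. These 6 were each at least 1.5-fold higher and 0 lower, against 22.7% higher and 11.3% lower among all 8389 genes with 50 or more UMIs. Their median log2 ratio was 1.13, against 0.17 over all ranked genes. The members were chosen with earlier ratios of these data in view, so nothing is read from this count or median. The class I sum was 1435 CPM in control and 3973 CPM in CX-5461 fibroblast-like cells, a ratio of 2.77 (2.69 to 2.85), and the class II sum 9 and 100 UMIs, a ratio of 12.7 (6.44 to 28.6).

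B2m had 5113 and 12571 UMIs in fibroblast-like cells of the control and CX-5461 libraries, 1139 CPM (1108 to 1170) against 3203 CPM (3147 to 3260), a ratio of 2.81 (2.72 to 2.91). H2-K1 had 559 and 1245 UMIs, 124.5 against 317.2 CPM, a ratio of 2.55 (2.305 to 2.82). H2-D1 had 774 and 1777 UMIs, 172.4 against 452.8 CPM, a ratio of 2.63 (2.41 to 2.86). The 3 chain genes thus had ratios within a narrow range. Tap1 had 150 and 229 UMIs in fibroblast-like cells, a ratio of 1.75 (1.42 to 2.16), and Tap2 had 28 and 46, a ratio of 1.88 (1.15 to 3.12). Tapbp had 218 and 286 UMIs, 48.5 against 72.9 CPM, a ratio of 1.501 (1.25 to 1.80), on the other side of 1 from its ratio in ES-like cells. With TMM factors its log2 ratio in fibroblast-like cells was 0.43, below 1.5-fold. The fibroblast markers themselves were higher in this class of the CX-5461 library, 10 of 12 by 1.5-fold or more, with a summed level of 2875 CPM in the control and 5472 CPM under CX-5461; the part of this in the class I ratios was not tested.

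H2-Ab1 had 3 UMIs in control and 43 in CX-5461 fibroblast-like cells, a ratio of 16.4 (5.25 to 82.6), in 27 of 162 cells. H2-Eb1 had 6 and 38 UMIs, a ratio of 7.25 (3.04 to 21.0), and was at 9.68 CPM under CX-5461. After thinning its log2 ratio was 1.90 in place of 2.86, with a UMI left in only 1 control and 3 CX-5461 cells. ES markers in the fibroblast-like cells of that library stood at 2.92% of their ES-like level, and H2-Eb1 RNA carried over from ES-like cells at that share would amount to 3.37 CPM. Cd74, with 0 and 12 UMIs, was 4.58-fold higher when the same floor stood for the control, and the exact lower limit of its ratio was 3.18. H2-Aa had 0 UMIs in the control and 7 under CX-5461, and the 7 lay in 1 cell. That cell also held the most class II UMIs of the class, 18, and without it the log2 ratio of the class II sum was 3.39 in place of 3.67. Class II in fibroblast-like cells thus rested on few counts.

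**Figure D3:**
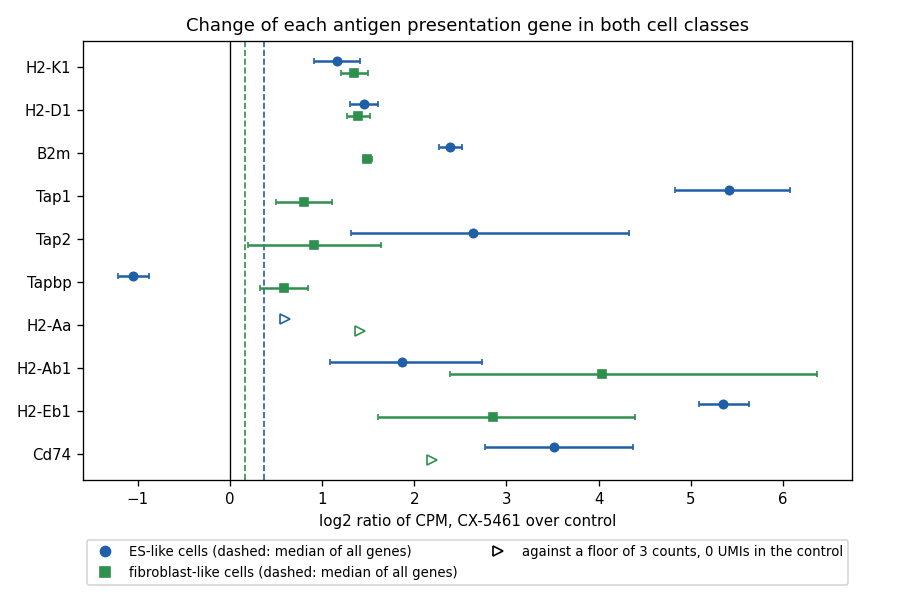
Log2 ratio of CPM, CX-5461 over control, of each gene in ES-like cells (blue circles) and fibroblast-like cells (green squares) with exact conditional 95% intervals of counting error; open triangles are ratios against a floor of 3 counts for genes at 0 in the control, and dashed lines give the median of all ranked genes of the class, 0.37 and 0.17. Tap1 stood at 5.42 in ES-like and 0.80 in fibroblast-like cells, and Tapbp at -1.05 and 0.59.

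Side by side, the classes differed in which members had the larger ratio. The difference in log2 ratio, ES-like minus fibroblast-like, was 4.61 for Tap1, 2.495 for H2-Eb1 and 0.90 for B2m. It was -0.19 for H2-K1 and 0.06 for H2-D1, and -1.63 for Tapbp and -2.17 for H2-Ab1. The counting intervals of the ratios in both classes did not overlap for Tap1, H2-Eb1, B2m and Tapbp and overlapped for H2-K1, H2-D1, Tap2 and H2-Ab1. The share of all genes without overlap is not given here, so nothing about the members is read from this split. With 1 library per condition these differences between classes have no replicate check.

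Within the control library the members also marked the classes apart. The class I sum was 48.8-fold (45.9 to 51.9) higher in fibroblast-like than in ES-like cells, with B2m 76.9-fold, Tap1 60.04-fold, H2-K1 29.2-fold and H2-D1 16.7-fold higher. Tapbp was 2.91-fold (2.49 to 3.39) higher. Of the 4 members with 200 or more UMIs over the compared classes and ranked, all 4 were higher in fibroblast-like cells, against 26.1% higher and 39.7% lower among all 8739 genes. Class II did not follow: the class II sum was 9 UMIs in fibroblast-like cells and 148 in ES-like cells, a ratio of 0.56 (0.251 to 1.09). Under CX-5461 the class I sum was 34.3-fold (33.4 to 35.3) higher in fibroblast-like cells, and H2-Eb1 was 11.9-fold (8.69 to 16.9) higher in ES-like cells.

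The 2C-like cluster, named from markers of the cell state that resembles the embryo's 2-cell stage, held 12 control and 86 CX-5461 cells and only the latter allow a value. Under CX-5461 H2-Eb1 had 143 UMIs there, 127.8 CPM (107.7 to 150.6), 1.11-fold (0.93 to 1.30) its level in ES-like cells. H2-K1 was 3.19-fold (2.19 to 4.51) and Cd74 3.22-fold (1.78 to 5.41) above ES-like cells, on 34 and 15 UMIs. The class I sum was 1.40-fold (1.20 to 1.62) and the class II sum 1.19-fold (1.01 to 1.40) their ES-like level.

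The rest of the pathways was followed through lists of related genes, chosen like the members with earlier results in view. Of the 9 genes of antigen processing for class I with 50 or more UMIs in ES-like cells, 3 were at least 1.5-fold higher and 1 lower, with a median log2 ratio of 0.38, against 0.43 over all 15297 genes with as many UMIs, of which 41.9% were higher and 8.33% lower. Nlrc5, the class I transactivator, had 1 UMI in control and 170 in CX-5461 ES-like cells, a ratio of 110.4 (19.5 to 4385) and a log2 ratio of 6.79. Psmb9 at 3.57 and the chaperone Pdia3 at 0.98 followed. Nlrc5 and Psmb9 reached 50 UMIs only through the CX-5461 library, so nothing is read from the count of this list. At the low end Tapbpl, a relative of tapasin that edits peptides outside the loading complex, had 415 and 113 UMIs, a ratio of 0.177, the same direction as Tapbp.

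Of the 9 class II pathway genes with 50 or more UMIs in ES-like cells, 8 were at least 1.5-fold higher and 0 lower, with a median log2 ratio of 1.22, against 41.9% higher, 8.33% lower and a median of 0.43 over all genes with as many UMIs. Ciita, the class II transactivator, had 5 UMIs in control and 312 in CX-5461 cells, 0.121 and 4.90 CPM, a log2 ratio of 5.34. H2-DMb1, a chain of the editor that exchanges the invariant chain remnant for peptide, had 20 and 226 UMIs, a log2 ratio of 2.88. Rfx5, the DNA-binding subunit of the complex that recruits CIITA, stood at 1.58, and its partner Rfxap at -0.25. Ciita, H2-DMb1 and Rfx5 were among the genes of this list that reached 50 UMIs only through the CX-5461 library. Nothing is therefore read from the count or median of the list. Cathepsin S (Ctss), which trims the invariant chain in professional presenting cells, had 0 and 1 UMIs. In fibroblast-like cells Ciita had 1 UMI in the control and 0 under CX-5461, and Nlrc5 had 12 and 22.

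**Figure D4:**
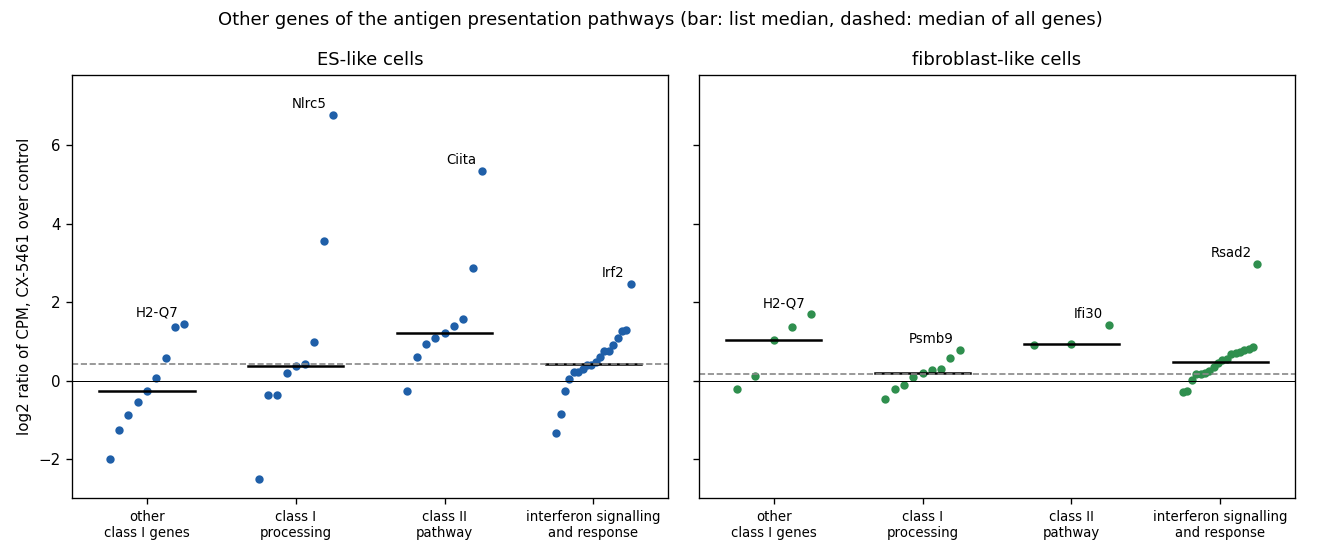
Log2 ratio of CPM, CX-5461 over control, of the genes with 50 or more UMIs in 4 lists of related genes, in ES-like cells (left) and fibroblast-like cells (right), each point a gene, with the list median as a bar, the median of all genes as a dashed line and the highest gene of each list named. Nlrc5 at 6.79 and Ciita at 5.34 stood above the rest of their lists in ES-like cells, and neither reached 50 UMIs in fibroblast-like cells.

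The other class I genes, mostly of the Q, T and M regions, did not move as 1 group. In ES-like cells 3 of 9 were at least 1.5-fold higher and 3 lower, with a median log2 ratio of -0.27, against the same 41.9%, 8.33% and 0.43 over all genes. H2-Q7 stood at 1.45 and the neonatal Fc receptor gene Fcgrt at 1.36, H2-T23 at -2.01 and H2-Q6 at -1.25. Summed over the list of 17 genes, the level was 107.9 CPM in control and 78.7 CPM in CX-5461 ES-like cells. H2-Q4 made up most of it, at 61.5 and 42.3 CPM. The class I sum of H2-K1, H2-D1 and B2m thus does not stand for all class I genes. Q-region genes are near copies, and their separate levels are uncertain. Of the 18 genes of interferon signalling and response with 50 or more UMIs in ES-like cells, 8 were higher and 2 lower, with a median of 0.43, which is near the 41.9%, 8.33% and 0.43 of all genes. Irf2 stood at 2.46 on 6 and 51 UMIs, and the interferon-induced genes Bst2 and Isg15 stood at -1.34 and -0.85. In fibroblast-like cells 7 of 18 were higher and 0 lower, with a median of 0.49, against 22.7%, 11.3% and 0.17 over all genes, with Rsad2, an antiviral enzyme, at 2.98.

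Markers of professional antigen presenting cells were read beside the class II genes. Of the 12 macrophage markers in ES-like cells, C1qb and Adgre1 were at 0 in both libraries and Lyz2 had 7 UMIs in the control and 2 under CX-5461, while the sum of the list was 40.0 CPM in the control and 85.2 CPM under CX-5461, mostly Laptm5 and Cd68. Spi1, a transcription factor of myeloid and B cells, had 81 and 358 UMIs, a ratio of 2.87 (2.25 to 3.70). Of the 6 dendritic markers Itgax, Cd209a and Ccr7 were at 0 in both libraries, and the sum was 0.75 and 0.77 CPM. The 5 B cell markers summed to 1.62 and 5.45 CPM. All 3 of them with 50 or more UMIs were at least 1.5-fold higher under CX-5461, against 41.9% of all genes. Their median log2 ratio was 2.57. Of these, Cd79a and Pax5 reached 50 UMIs only through the CX-5461 library, so nothing is read from the count or median. Cd79b, a subunit of the B cell receptor complex, had 58 and 191 UMIs, its partner Cd79a had 7 and 64, a ratio of 5.94 (2.72 to 15.4), and Pax5, a transcription factor of B cells, had 1 and 75, a ratio of 48.7 (8.48 to 1949). The 4 T cell markers summed to 4.21 and 12.6 CPM. Of the T cell receptor complex, Cd3d stood at 2.01 and 9.27 CPM, Cd3g had 4 and 94 UMIs, a ratio of 15.3 (5.77 to 57.2), Cd3e had 86 and 117, and Trac had 1 in each library. The 5 cells with 10 or more Lyz2 UMIs held 0 UMIs of each of the 4 class II genes. Keratinocyte markers stood at 0.0968 CPM in control and 40.4 CPM in CX-5461 ES-like cells. The part of these marker genes in the class II levels was not tested.

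As a description of likeness, 12346 other genes with 200 or more UMIs were correlated with the group sums over 10 pools of 30 or more cells, each a cluster in 1 library, on log2(CPM + 1). The genes closest to the class I sum were Itm2b, Pbxip1, Itgb5, Plxnb2 and Ifnar2, with Pearson r from 0.99 to 0.994. Those closest to the class II sum were Etfdh, Tex15, Nbr1, 1500009L16Rik and Gm8451, with r from 0.984 to 0.991. The pools share libraries and differ in depth, and the class I pattern separates fibroblast-like cells from the rest while the class II pattern separates the CX-5461 pools from the control pools.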

How the data were processed

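Single-cell RNA-seq was measured in 2 conditions, untreated and CX-5461. The authors deposited counts of UMIs per gene and barcode without normalization, made per the methods from 10x Genomics 3' v2 libraries with a published droplet pipeline, in which HISAT2 took the place of Bowtie to count repeat sequences; whether it also made the gene counts is not given in the sources used here. The submitters' processing notes name Seurat 2.3.4 and the build mm10. A deposited column of counts shared between genes was used only to check members. The filter of the methods was applied: 500 UMIs or more, and a mitochondrial share of 0.2 or less. Of 54146 identifiers, 54079 matched GENCODE vM21 (GRCm38) without version numbers. Members, lists and markers were chosen with earlier results of these data known.

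Cells of both libraries were clustered with scanpy 1.11.5 (log-normalized to 10000 UMIs, 2000 scaled variable genes without members and pathway genes, 16 principal components, 15 neighbours, Leiden resolution 0.5). A cluster was named from 3 or more of a class's markers among its 50 leading genes, and ES-like where the level of ES markers was no less than 0.5 times that over all cells; shallow clusters without a leading marker stayed unnamed. Names were rebuilt here and may differ from the authors'. Scrublet called 1 control and 4 CX-5461 cells, too few to have worked, and doublets were not removed.

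UMIs were summed per class and library and given as CPM. Intervals are exact at 95% (Poisson, conditional binomial and Clopper-Pearson); PCR and culture variation are not in them. Ratios against 0 used a floor of 3 counts. No p-value was computed, since there was 1 library per condition. On simulated counts, 91.0% of 200 changed genes were recovered in ES-like pools of 11680 genes and 95.0% in fibroblast-like pools of 8389 genes. Of the unchanged genes, 0.0174% in ES-like and 2.85% in fibroblast-like pools passed the fold. Named were all members, and per list at most the 3 highest and 3 lowest ratios among genes with 50 or more UMIs, beside genes at 0. Outside this rule Lyz2, Trac, Ctss, H2-Q4, the neighbours of H2-Eb1, and Ciita and Nlrc5 in fibroblast-like cells were named after their values were seen. TMM factors came from edgeR 4.0.16. The value of 1 marker gene is not reported here.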

Additional observations from a re-analysis of the deposited data

Results flagged for a closer look

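Tapbp was marked because both cell classes moved in opposite directions under the same contrast: its log2 ratio of CX-5461 over control was -1.05 in ES-like cells and 0.59 in fibroblast-like cells. The difference was not tested, since each condition was 1 library.

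The 5 control cells with 10 or more Lyz2 UMIs, which enter no comparison, carried class I genes at 5157 CPM in sum, on 314 UMIs, and 0 UMIs of the class II genes. The 1174 unnamed control cells, also outside the comparisons, held 96.1 CPM of the class I sum on 333 UMIs. The shallow cluster, 1169 of these cells, held 219 of the UMIs, at 63.5 CPM (55.4 to 72.5), between the levels of control ES-like and fibroblast-like cells, and the other 5 cells held the rest.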

How the results depend on the processing

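Over the members that have a ratio and the loading sum, 19 results, and 12 planned or added settings, 184 of 209 values moved by less than their counting interval, 25 moved further and none changed sign. The class I and class II sums are not in this count, and each of their values that moved further is given here. The log2 ratio of the class I sum in ES-like cells, 1.98, was 1.57 with TMM factors, 1.74 with classes drawn from marker UMIs, 2.07 thinned to 3000 UMIs and 1.85 with the shallow control cluster added. That of the class II sum in ES-like cells, 5.08, was 4.68 with TMM factors, 4.74 without cluster 8 and 2.92 without H2-Eb1. The class I sum in fibroblast-like cells, 1.47, was 1.31 with TMM factors, 1.34 as a mean over cells, 1.42 with the Lyz2 cells kept and 1.35 after thinning. TMM factors shift all log2 ratios of a class by the same amount, which was negative in both classes. The cause of the other shifts was not tested. The settings without cluster 8, with the shallow cluster, without H2-Eb1 and without 1 fibroblast-like cell were chosen after seeing the data. The number of members past 1.5-fold in ES-like cells, 7, was 10 with no minimum of UMIs, 5 after thinning and 7 with a fold of 2. The 10 include H2-Aa, which passed only against the floor. The shares of all genes at these settings are not given here, so nothing is read from these counts.

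No paired analysis was possible because the tables carry no sample of origin for their barcodes, although the labels number the samples of both conditions alike. For the same reason no sample was left out in turn. Depth limits Tap2, H2-Aa, H2-Ab1 and Cd74, each with 16 UMIs or fewer in control ES-like cells, and differences between the libraries other than CX-5461 cannot be told apart from it.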
